A study of Felis catus with 8 samples.

Results

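The genes described here encode the nuclear subunits of the 5 complexes of oxidative phosphorylation, measured in the liver of male cats on 4 diets. They were chosen by symbol. The choice took every probe set that the array annotation ties to 1 gene only, where that symbol starts with NDUF, UQCR, COX4, COX5, COX6, COX7, COX8 or ATP5, or is SDHA, SDHB, SDHC or SDHD. This gave 88 symbols on 627 probe sets, of 18701 symbols on 224320 probe sets with 1 gene. A filter on dim probe sets left 377 of the 627 probe sets and 87 of the 88 genes, of 17910 genes tested. UQCR was the member with no probe set above the filter, and it has no value here. The 88 symbols comprise 35 complex I subunits, 4 complex I assembly factors, 4 complex II subunits, 7 complex III genes, 19 complex IV genes, 16 ATP synthase (complex V) genes and 3 others. The 3 others are ATP5S and ATP5SL, named for coupling factors, and COX4NB, a neighbour of COX4I1 that is no subunit and entered through its symbol. NDUFA4 and its relative NDUFA4L2 were placed with complex IV, where the NDUFA4 protein is now assigned. Probe sets that the annotation shares between genes were not used, and NDUFA13, which has no others here, was not analysed.

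Each diet had 2 arrays of snap-frozen liver from males aged 9 months. Controls ate a standard chow. The MSG diet added monosodium glutamate (MSG), a salt used to flavour food, to that chow at 1.125%. High-fructose corn syrup (HFCS) at 24% and trans fat at 8.6% made up the trans-fat/HFCS diet, and all 3 components at these shares made up the combined diet. Every male had also been exposed through its mother, since the dams were put on their diets 3 weeks before mating and stayed on them through nursing, and the males were then weaned onto the same diet. The arrays of a diet are labelled biological replicates, with no litter given and no statement on pooled RNA, so the p-values measure the spread between arrays, which may include cats that shared a dam.

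Oxidative phosphorylation turns the electrons of NADH and succinate into ATP in the inner mitochondrial membrane. Complex I takes electrons from NADH and complex II from succinate, both pass them through ubiquinone to complex III, cytochrome c carries them to complex IV, which reduces oxygen, and ATP synthase uses the proton gradient made on the way. Liver relies on this chain to oxidise fatty acids and to pay for the synthesis of glucose and urea. Core subunits carry the redox centres or catalytic sites, and accessory subunits stabilise each complex. Several complex IV subunits exist as isoforms with a preferred tissue. The roles named below are those known from human and other mammalian proteins.

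The signal was comparable between arrays, with a median probe set intensity between 5.25 and 5.28. All 12 hepatocyte markers were tested and none differed between any of the diets and control at an adjusted p under 0.05, with the summed intensity of their gene values between 5392 and 6201 on every array. Skeletal muscle markers set the trans-fat/HFCS arrays apart. Of 20 such genes, 17 were higher there than in controls (limma, Benjamini-Hochberg adjusted p under 0.05), and none was called in the combined or MSG diet against control. Their summed intensity was 988 and 1002 on the trans-fat/HFCS arrays, 280 and 285 in controls, 287 and 293 with MSG, and 285 and 311 with the combined diet. Of the other marker lists, for the main effect of trans fat and HFCS, 2 of 5 adipocyte genes were called higher and 1 lower, 1 of 6 macrophage and 1 of 6 cardiac genes were called higher, and none of 3 erythroid genes was called. The part of these cells in the results below was not tested. The comparison of the combined with the MSG diet uses neither trans-fat/HFCS array and is given beside the main effect. As these are whole tissue samples, fewer cells of a type and less RNA per cell cannot be told apart.

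The broad comparison was between the 4 arrays with trans fat and HFCS and the 4 without, averaged over the presence of MSG. Most subunit genes stayed within a narrow range, as did most of all genes tested. Of 87 members, 6 passed the threshold of 0.05 for the Benjamini-Hochberg adjusted p of limma, which is 6.9% of them, against 7.66% of all 17910 genes. ATP5I and SDHA were called higher, and NDUFA11, COX4I2, COX6B1 and COX6B2 lower. The means of SDHA and COX6B2 each include a probe set kept through the arrays where it was high. With the brightest probe set, SDHA was at 0.16 and COX6B2 at 0.33 (limma adjusted p = 0.50 in both). Across all genes, 4.44% were called higher and 3.22% lower. The median log2 change of the 87 members was -0.08, with 35 positive and 52 negative, beside a median of 0.02 over all genes tested. The 95% confidence interval of the change lay within 1.5-fold in either direction for 56 of the 87 members and within 2-fold for 82. Of all 17910 genes, 10551 lay within 1.5-fold and 16551 within 2-fold. In 12 members (13.8%) the 4 arrays with trans fat and HFCS did not overlap the 4 without, as in 15% of all genes, 4 of them higher and 8 lower.

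**Figure D1:**
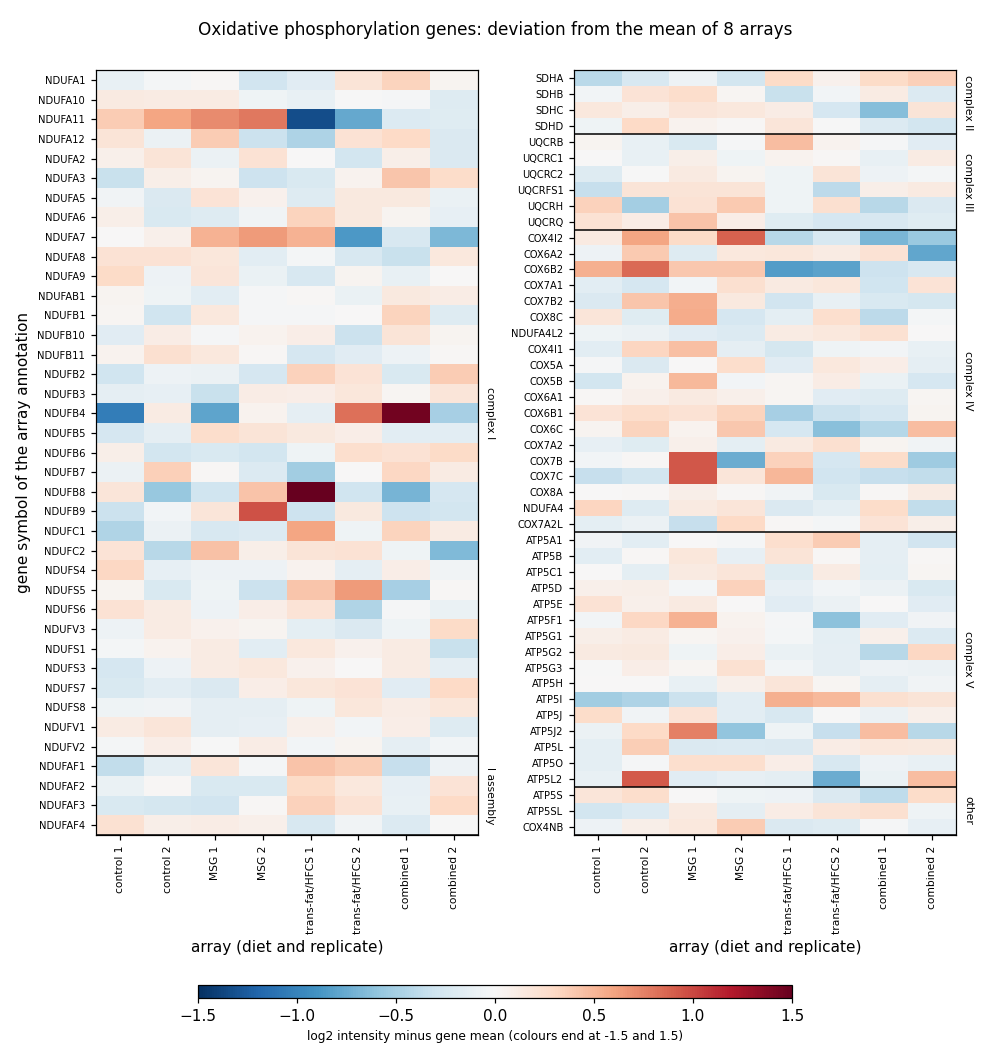
Each row is a gene and each column an array, grouped by diet, and the colour gives log2 intensity minus the mean of that gene over the 8 arrays, with colours ending at -1.5 and 1.5. Most rows are pale, while NDUFA11, COX6B2, COX4I2 and ATP5I differ between the 4 arrays with trans fat and HFCS and the 4 without, and NDUFB4 and NDUFB8 vary between arrays of the same diet.

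The 5 complexes gave different medians, all small. For the trans-fat/HFCS main effect the median log2 change was 0.00 over 35 complex I subunits, -0.19 over 4 complex II subunits, -0.05 over 6 complex III subunits, -0.15 over 19 complex IV genes and -0.16 over 16 ATP synthase genes. Complex I was balanced, with 18 positive and 17 negative changes. Complex IV had 4 positive and 15 negative changes, and ATP synthase had 5 and 11. All but 4 of the genes in those last complexes missed the threshold, and differences between complexes were not tested. The median standard error of a single gene was 0.14.

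**Figure D2:**
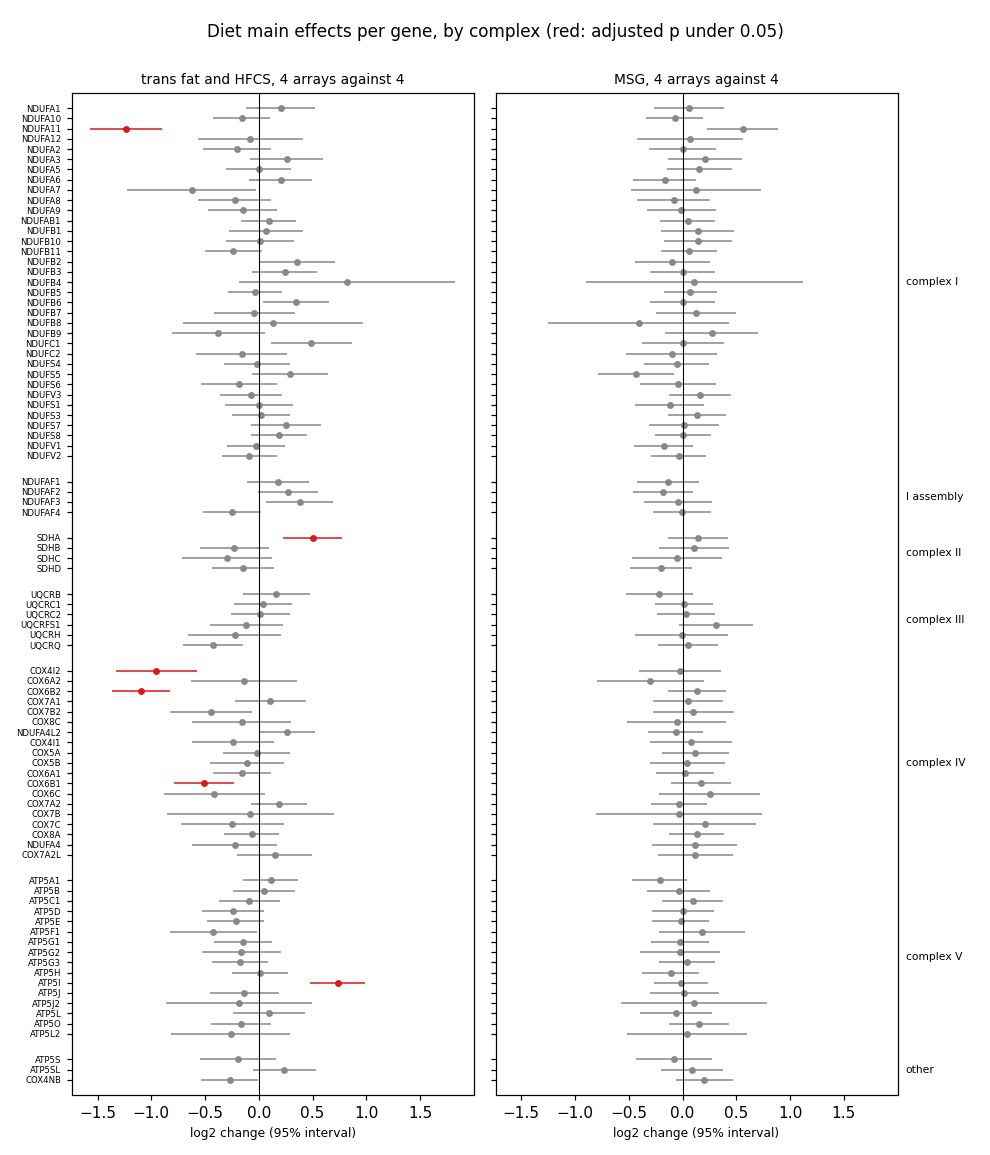
Points give the log2 change of each gene, with its 95% confidence interval, for the main effect of trans fat and HFCS on the left and of MSG on the right, each from 4 arrays against 4 and grouped by complex. The 6 genes with an adjusted p under 0.05 are red, and all 6 are in the left panel.

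In complex I, NDUFA11, an accessory subunit of the membrane arm, changed most among the members. Its log2 values were 4.11 and 4.31 in controls, 4.43 and 4.51 with MSG, 2.40 and 2.96 with trans fat and HFCS, and 3.52 and 3.54 with the combined diet. All 4 arrays with trans fat and HFCS lay below the 4 without, and the combined arrays lay between the trans-fat/HFCS arrays and the rest. The main effect was -1.24 (SE 0.15, n = 4 against 4), or 2.35-fold lower, with a limma adjusted p of 0.0029. The combined diet against the MSG diet gave -0.94, which did not pass in the fit to all 8 arrays (limma adjusted p = 0.065). It passed when the spread was estimated without the trans-fat/HFCS arrays (limma adjusted p = 0.044), a setting chosen after seeing the data.

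The 6 core subunits of complex I that were measured, most of which hold flavin or iron-sulphur centres, showed no call. Their main effects of trans fat and HFCS ranged from -0.09 in NDUFV2 to 0.25 in NDUFS7, and all 6 confidence intervals lay within 1.5-fold. NDUFS1, the largest of them and the member with most kept probe sets (14), changed by 0.00 (95% interval -0.32 to 0.32). NDUFV1, which binds NADH and the flavin, changed by -0.03 (-0.30 to 0.25). NDUFS3 and NDUFS8 changed by 0.02 and 0.19.

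Among the other accessory subunits of complex I, NDUFB4 had the most positive estimate, 0.82, with a standard error of 0.45 and an adjusted p of 0.30 by limma. Its 2 kept probe sets gave the same change, so they may not be separate readings. Its log2 values ran from 2.16 to 4.64, with 4.64 and 2.70 on the combined arrays, so arrays of the same diet spanned most of that range. NDUFC1, a small membrane subunit, was looked at after its values were seen because its arrays did not overlap. It measured 4.30, 4.66, 4.50 and 4.54 without trans fat and HFCS and 5.33, 4.68, 5.07 and 4.86 with them. The change of 0.49 (SE 0.17) did not pass the threshold (limma adjusted p = 0.11).

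The 4 assembly factors of complex I, which help build the complex and are absent from its finished form, were also examined by name after their values were seen. None passed the threshold. The estimates were 0.38 for NDUFAF3 (limma adjusted p = 0.14), 0.27 for NDUFAF2, 0.18 for NDUFAF1 and -0.25 for NDUFAF4. NDUFAF1 read 4.67 and 4.62 on the trans-fat/HFCS arrays, above 3.88 and 4.10 in controls, while the combined arrays at 3.90 and 4.17 overlapped the controls. Its difference between trans-fat/HFCS and control, 0.65, had a limma adjusted p of 0.098.

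Complex II oxidises succinate both for the chain and for the tricarboxylic acid cycle. SDHA, its flavin-carrying catalytic subunit, read 5.70 and 5.86 in controls, 6.03 and 5.82 with MSG, 6.39 and 6.17 with trans fat and HFCS, and 6.39 and 6.46 with the combined diet. Each array with trans fat and HFCS was above each one without. SDHA rose by 0.50 (SE 0.12), or 1.41-fold, with a limma adjusted p of 0.041. That call leaned on 1 of 11 probe sets, which was kept only through the arrays where it was high. The other subunits had negative estimates that did not pass: -0.23 for SDHB, the iron-sulphur subunit, and -0.30 for SDHC and -0.15 for SDHD, the membrane anchors, with limma adjusted p between 0.36 and 0.51. The 4 subunits of this complex therefore gave estimates of both signs. SDHC rested on 1 probe set.

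In complex III no member passed in the fit reported. The core proteins UQCRC1 and UQCRC2, which hold the complex on its matrix side, changed by 0.04 (95% interval -0.23 to 0.31) and 0.01 (-0.26 to 0.29). UQCRFS1, the Rieske iron-sulphur protein, changed by -0.12, UQCRB by 0.16 and UQCRH by -0.23. UQCRQ, a small subunit also known as a ubiquinone-binding protein, was nearest to the threshold. It measured 5.61 and 5.50 in controls, 5.81 and 5.49 with MSG, 5.20 and 5.13 with trans fat and HFCS, and 5.14 and 5.21 with the combined diet. The arrays with trans fat and HFCS were all below those without, and the change was -0.43 (SE 0.12, limma adjusted p = 0.068). Of its 3 kept probe sets, those with changes of -0.53 and -0.59 moved alike, and the third changed by -0.17. UQCRQ passed under 3 other settings, without the filter (limma adjusted p = 0.039), with the 75th percentile filter (0.048) and with an offset of 16 (0.015).

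Complex IV held 3 of the 4 members that fell. COX6B1, the common form of a subunit that faces the intermembrane space, read 4.58 and 4.64 in controls, 4.59 and 4.71 with MSG, 3.88 and 4.05 with trans fat and HFCS, and 4.12 and 4.41 with the combined diet. The arrays with trans fat and HFCS were all lower, the second combined array least so. COX6B1 fell by 0.51 on the log2 scale (SE 0.12), or 1.43-fold, with a limma adjusted p of 0.039. COX6B2, the form of the same subunit known from testis, read 4.09 and 4.41 in controls, 3.97 and 3.97 with MSG, 2.72 and 2.76 with trans fat and HFCS, and 3.25 and 3.33 with the combined diet. It was lowest on the trans-fat/HFCS arrays, and no array with trans fat and HFCS reached one without. Its main effect was -1.10 (SE 0.12), or 2.14-fold lower, with the smallest adjusted p of all members (limma, 0.0020). That mean includes a probe set at -2.97 that was kept through the arrays where it was high. The brightest probe set of COX6B2 gave 0.33 (limma adjusted p = 0.50), and the 75th percentile filter gave -0.38 (0.26).

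COX4I2, the lung-type form of subunit 4 that is induced by low oxygen, read 4.40 and 4.85 in controls and 4.56 and 5.16 with MSG. It read 3.85 and 4.02 with trans fat and HFCS and 3.59 and 3.71 with the combined diet. Here the combined arrays were the lowest. COX4I2 fell by 0.95 (SE 0.17), or 1.93-fold, with a limma adjusted p of 0.014. COX4I1, the form of subunit 4 found in most tissues, changed by -0.24 (95% interval -0.62 to 0.14), with arrays that overlapped. The 11 common isoforms of complex IV gave 1 positive and 10 negative estimates, of which COX6B1 alone passed.

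The remaining isoform families of complex IV showed no call. COX6A1, the liver form, changed by -0.15 (95% interval -0.42 to 0.12) and COX6A2, the heart and muscle form, by -0.14 (-0.64 to 0.36). COX7A2, the liver form, changed by 0.19, COX7A1, the muscle form, by 0.11, and COX7A2L, a factor that joins complexes III and IV into supercomplexes, by 0.15. COX7B and COX7B2 changed by -0.08 and -0.44, and COX8A and COX8C by -0.07 and -0.16. COX6A2, COX7B, COX7B2 and COX8C rested on 1 probe set each. NDUFA4 changed by -0.22 and NDUFA4L2, its relative induced by low oxygen, by 0.26 (limma adjusted p = 0.20). The NDUFA4L2 arrays did not overlap, with values between 6.32 and 6.45 without trans fat and HFCS and between 6.53 and 6.75 with them.

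In ATP synthase, ATP5I stood out. It encodes subunit e, a small membrane protein at the interface between paired synthases. Its log2 values were 5.16 and 5.22 in controls, 5.37 and 5.53 with MSG, 6.22 and 6.17 with trans fat and HFCS, and 5.93 and 5.89 with the combined diet. No arrays of different diets overlapped, and control was lowest and trans-fat/HFCS highest. ATP5I rose by 0.73 (SE 0.11), or 1.66-fold, with a limma adjusted p of 0.0077.

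In the F1 part of the synthase, which holds the catalytic sites, none of 5 genes passed. ATP5A1, the alpha subunit, changed by 0.11 (95% interval -0.15 to 0.37) and ATP5B, the beta subunit, by 0.05 (-0.24 to 0.34). The other F1 genes, ATP5C1, ATP5D and ATP5E, changed by -0.09, -0.24 and -0.22. The genes ATP5G1, ATP5G2 and ATP5G3, which encode the same subunit c of the membrane ring, changed by -0.15, -0.16 and -0.17, none past the threshold. ATP5G3 and ATP5D did not overlap between the arrays, all 4 with trans fat and HFCS being lower. ATP5F1, subunit b of the stalk, had the most negative estimate of the complex, -0.42 (SE 0.18, limma adjusted p = 0.18).

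**Figure D3:**
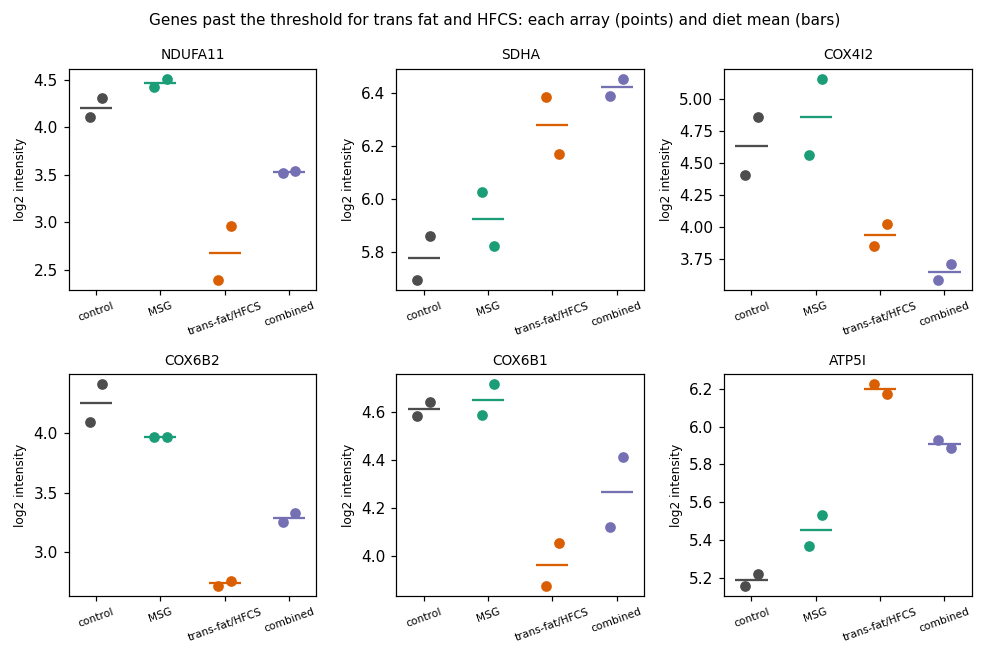
Points give the log2 intensity of the 6 called genes on each of the 8 arrays, by diet. SDHA and ATP5I are higher on all 4 arrays with trans fat and HFCS than on the 4 without, and NDUFA11, COX4I2, COX6B1 and COX6B2 are lower. The values of SDHA and COX6B2 each include a probe set kept through the arrays where it was high.

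A gene value is the mean of its kept exon-level probe sets, and the calls rested on few of them. In NDUFA11, the probe set that changed most gave -2.59 and the other gave 0.12. On the first of these, the log2 values were 6.09 and 6.31 in controls and 2.35 and 3.09 with trans fat and HFCS. In COX4I2 the probe sets gave -1.81 and -0.09, and in COX6B1 -1.05 and 0.03. In each of these 3 genes, then, 1 of 2 probe sets carried the difference. It was the brighter of the 2, with a mean log2 value of 4.98 in NDUFA11, 5.66 in COX4I2 and 6.11 in COX6B1. The other probe set was dimmer and did not pass the 75th percentile filter in any of these genes. Whether that dimmer probe set could have shown a fall was not tested, and the gene values average both.

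In ATP5I, 1 probe set gave 2.01 and the others 0.19 and 0.00. In SDHA, 1 of 11 probe sets gave 3.17, while the other 10 had a median of 0.15 and ranged from -0.44 to 1.12. That probe set read between 1.82 and 2.34 on the 4 arrays without trans fat and HFCS, all below the filter value of 2.43, and between 4.42 and 6.64 on the others. It was thus kept only through the arrays where it was high, so its change has no measured lower side and the SDHA call leans on it. In COX6B2 the 4 probe sets gave -2.97, -1.10, -0.65 and 0.33. More than 1 probe set of COX6B2 fell by over 2-fold. The one at -2.97 read 1.99, 1.90, 2.51 and 2.24 on the arrays with trans fat and HFCS, 3 of them below the filter value, so it too was kept through the arrays where it was high. Of the 377 kept probe sets of all members, 22 (5.84%) in 18 members changed by over 2-fold, against 9.5% of all kept probe sets with 1 gene. What made probe sets of a gene differ was not tested.

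The 6 calls differed in how far they held under 17 other settings. NDUFA11 passed in all 17, ATP5I and COX4I2 in 15, COX6B2 in 14, COX6B1 in 7 and SDHA in 4. With the brightest probe set in place of the mean of a gene, COX6B2 was at 0.33 (limma adjusted p = 0.50), ATP5I at 0.19 (0.42) and SDHA at 0.16 (0.50). SDHA missed the threshold when any 1 array was left out (limma adjusted p between 0.065 and 0.14), and COX6B1 missed it without any array but the second combined one (between 0.068 and 0.12). COX4I2, at -0.84, missed it without the second control array, where fewer of all genes passed as well.

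**Figure D4:**
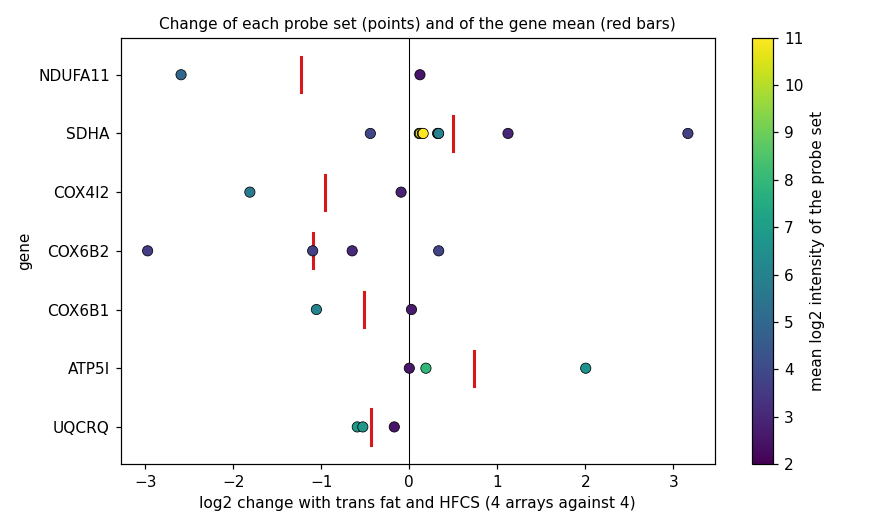
Points give the log2 change of each kept probe set of the 6 called genes, and of UQCRQ, which was not called, for the trans-fat/HFCS main effect. Most lie near 0, and in NDUFA11, COX4I2, COX6B1, ATP5I and SDHA 1 probe set lies far from the rest of its gene.

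Each diet was also set against control with 2 arrays each. With trans fat and HFCS, 3 of 87 members passed (3.45%, beside 2.48% of all genes). ATP5I rose by 1.01 (SE 0.16, limma adjusted p = 0.016). NDUFA11 fell by 1.53 (SE 0.21, limma adjusted p = 0.0094) and COX6B2 by 1.51 (SE 0.17, limma adjusted p = 0.0039). Without the first or the second control array, ATP5I (limma adjusted p 0.13 and 0.11) and NDUFA11 (0.062 and 0.094) missed the threshold, and ATP5I also did without either trans-fat/HFCS array (0.082 and 0.076). With the combined diet 1 member passed (1.15%, beside 1.16% of all genes). It was COX6B2, which fell by 0.96 (SE 0.17, limma adjusted p = 0.039), and it passed no longer once any 1 of the 8 arrays was left out (limma adjusted p between 0.060 and 0.26). The comparisons with control share the control arrays.

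The combined diet was also set against the MSG diet, which compares trans fat and HFCS on a base with MSG and uses no trans-fat/HFCS array. There 1 member passed (1.15%, beside 1.66% of all genes), COX4I2, which fell by 1.21 (SE 0.24, limma adjusted p = 0.045). With the spread estimated from those 6 arrays alone, its adjusted p in limma was 0.064, leaving out any 1 array of the 8 gave between 0.059 and 0.19, and NDUFA11 was then the member that passed. The other called genes kept their sign in those 6 arrays and did not pass by limma: COX6B2 at -0.68 (adjusted p = 0.12), COX6B1 at -0.38 (0.32), ATP5I at 0.46 (0.22) and SDHA at 0.50 (0.20). An F test over the 4 diets called 3 members, NDUFA11, COX6B2 and ATP5I, beside 3.2% of all genes.

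MSG moved no member past the threshold. For the MSG main effect 0 of 87 members passed in limma (background 0.329%), and 2 (2.3%) had an unadjusted p under 0.05, NDUFA11 and NDUFS5, beside 7.91% of all genes. NDUFA11 differed by 0.56 (SE 0.15, limma adjusted p = 0.31), higher with MSG on both bases. NDUFS5, an accessory subunit on the intermembrane side of complex I, differed by -0.44 (SE 0.16, limma adjusted p = 0.53). Its log2 values were 5.42 and 5.14 in controls, 5.31 and 5.04 with MSG, 5.79 and 6.01 with trans fat and HFCS, and 4.88 and 5.39 with the combined diet. The arrays with and without MSG overlapped.

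The median MSG effect over the 87 members was 0.01, beside 0.00 over all genes, and the complexes had medians from 0.00 to 0.08. The 95% interval lay within 1.5-fold for 74 of the 87 members, beside 13630 of all 17910 genes. Extremes of the other complexes were taken among members with several kept probe sets. SDHA was at 0.14, SDHD at -0.20, UQCRFS1 at 0.31 and UQCRB at -0.22. COX6C was at 0.25, NDUFA4L2 at -0.07, ATP5F1 at 0.18 and ATP5A1 at -0.21. On its 1 probe set, COX6A2 had the most negative estimate of complex IV, -0.30. The MSG diet against control likewise gave 0 calls in limma (background 0.296%), with 3 members (3.45%) under an unadjusted p of 0.05, beside 7.64% of all genes. COX7C, named after its values were seen, had the smallest of these p-values. It read 4.97 and 4.21 with MSG and 3.69 and 3.76 in controls, a difference of 0.87 with a limma adjusted p of 0.49.

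The interaction asks whether MSG acts differently with and without trans fat and HFCS. No member passed in limma (background 0.151%), and 9 (10.3%) had an unadjusted p under 0.05, beside 9.07% of all genes. COX6B2 gave 0.83 (SE 0.24, limma adjusted p = 0.36), since it was lower with MSG than in controls but higher with the combined diet than with trans fat and HFCS alone. NDUFA11 gave 0.59 (SE 0.29, limma adjusted p = 0.60) and ATP5I -0.55 (SE 0.22, limma adjusted p = 0.52). NDUFAF1 had the smallest adjusted p of the members, 0.33 in limma, at -0.95 (SE 0.25). In these genes the trans-fat/HFCS arrays were farther from control than the combined arrays, but that difference was not shown beyond the spread.

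The trans-fat/HFCS arrays carried the skeletal muscle signal given above, and the muscle forms of complex IV were read beside it. COX7A1 measured 2.79 and 2.70 in controls, 2.91 and 3.19 with MSG, 3.09 and 3.12 with trans fat and HFCS, and 2.65 and 3.16 with the combined diet. Its difference between trans-fat/HFCS and control was 0.36 (95% interval -0.11 to 0.82, limma adjusted p = 0.40). COX6A2, on 1 probe set, differed by -0.01 (-0.72 to 0.69, limma adjusted p = 0.99). The trans-fat/HFCS arrays lay within the range of the other diets in both genes, while the marker list was higher there by medians of 1.51 and 1.60 on these arrays. Both genes were dim, with a mean log2 value of 4 or below, so a rise may be missed.

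**Figure D5:**
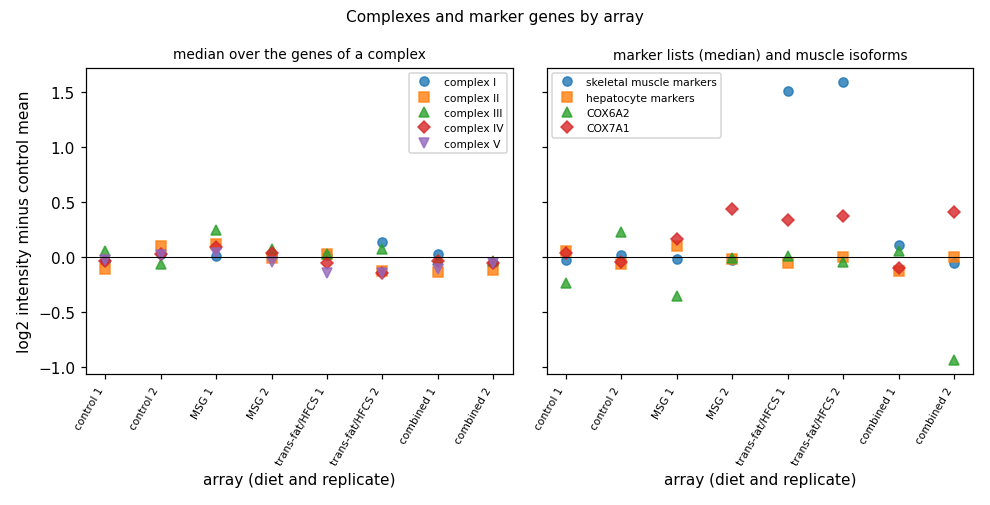
The left panel gives the median over the genes of each complex on each array, as log2 intensity minus the mean of controls, and the right panel gives the same for skeletal muscle and hepatocyte markers (list medians) and for COX6A2 and COX7A1. Complex medians stay between -0.14 and 0.25 on every array, while the muscle markers reach 1.51 and 1.60 on the trans-fat/HFCS arrays.

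Other genes of the pathway, drawn from lists of cytochrome c and c1, assembly factors, biogenesis regulators, uncouplers, coenzyme Q synthesis and the tricarboxylic acid cycle, were read in the same fit. Of 69 tested, the main effect of trans fat and HFCS called 3 higher and 1 lower, a share below the 7.66% of all genes, and the median change was 0.07. CYCS, cytochrome c itself, read 3.65 and 3.82 in controls, 3.92 and 3.94 with MSG, 5.19 and 4.88 with trans fat and HFCS, and 5.04 and 4.55 with the combined diet. It was higher on all 4 arrays with trans fat and HFCS, by 1.08 (SE 0.15, limma adjusted p = 0.0045). Its 4 probe sets gave 3.07, 1.15, 0.11 and 0.01. CYC1, the cytochrome c1 of complex III, changed by 0.11 and did not pass.

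SCO2, which delivers copper to complex IV, rose by 0.61 (SE 0.15, limma adjusted p = 0.037), with 0.75 and 0.48 on its probe sets. SUCLA2, a subunit of succinyl-CoA ligase, rose by 0.53 (SE 0.13, limma adjusted p = 0.042), with 1.51 on 1 probe set and 0.06 and 0.01 on the others. COX15, which makes the haem A of complex IV, fell by 0.58 (SE 0.15, limma adjusted p = 0.044). All 6 of its probe sets were lower, from -0.20 to -1.06. Against control alone, CYCS was the pathway gene called with trans fat and HFCS (1.30, limma adjusted p = 0.016), and none of the 69 was called in the other comparisons. Between the combined and MSG diets, which leaves out the trans-fat/HFCS arrays, the differences were 0.87 for CYCS, 0.58 for SCO2, 0.61 for SUCLA2 and -0.68 for COX15, with limma adjusted p between 0.082 and 0.19.

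The master regulators of mitochondrial gene expression did not pass. PPARGC1A changed by -0.12, NRF1 by -0.13 and TFAM, which packages mitochondrial DNA, by 0.48 (SE 0.17, limma adjusted p = 0.13). Of 15 biogenesis regulators tested, 5 had positive and none had called changes, with a median of -0.12. All 11 coenzyme Q genes tested had positive estimates with a median of 0.14, and none was called. UCP3, an uncoupling protein of muscle, changed by 0.71 (limma adjusted p = 0.051), with 4.02 and 4.21 on the trans-fat/HFCS arrays and between 2.69 and 3.63 on the others.

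Precision depended on signal. For the 21 members with a mean log2 value over 6, the trans-fat/HFCS main effect ran from -0.42 to 0.50 and the median standard deviation within a diet was 0.13. For the 32 members at 4 or below, the main effect ran from -1.24 to 0.82 and that standard deviation was 0.22. The NDUFB4 estimate and the calls of NDUFA11 and COX6B2 fall in the dim band, where each of the 7 members with 1 kept probe set other than SDHC also lay.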

How the data were processed

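Liver RNA (250 ng per array) was hybridised to 8 Affymetrix human whole-transcript arrays, so cat transcripts were read by human probes. The authors deposited linear intensities, one value for each exon-level probe set and array. GCRMA, Partek and hg19 are named, without versions, roles or order, per the submitters' processing notes. Depth does not apply to arrays, and 2 arrays per diet limit the precision.

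The deposited intensities were converted to log2. Probe sets with a mean above the median of all probe sets (log2 2.43) and 1 annotated gene were averaged per gene. In R 4.3.3, limma 3.58.1 fitted a model of the 4 diets to 17910 genes. Its moderated tests (eBayes) were two-sided, and p-values were adjusted by Benjamini-Hochberg over all genes, with a threshold of 0.05. A main effect averages the difference over both bases. The steps were tested on simulated data.

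Symbols are those of the platform annotation, and 56 of the 88 are in the cat gene table used for names (F.catus_Fca126_mat1.0). No sequence or coordinate is printed. The members and gene lists were chosen with earlier results of these data known. Genes named by rule are members past the threshold, extremes per complex among members with several kept probe sets, isoform families and core catalytic subunits. Other pathway genes were to be named where past the threshold or with the smallest p of their list. Any other gene, among them ATP5C1, ATP5D, ATP5E, PPARGC1A and NRF1, counts as chosen after its values were seen, also where this is not said. Alternatives were the filter, the summary of probe sets, an offset, quantile normalization, a replicate block, an additive model and leaving out arrays. Replicate numbers did not pair the arrays (correlations between -0.056 and 0.043).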

Additional observations from a re-analysis of the deposited data

How the results depend on the processing

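Counts of members called are given here in the order trans-fat/HFCS main effect (6 as reported), trans-fat/HFCS against control (3), combined against control (1), combined against MSG (1) and any difference among diets (3). With a filter at the 75th percentile, which left 76 members, they were 10, 6, 3, 4 and 7. The brightest probe set gave 10, 4, 2, 4 and 4, and an offset of 16 gave 8, 6, 4, 3 and 6. The share of all genes called for the main effect moved as well, from 7.66% as reported. It was 14.1% with the 75th percentile filter, 12.2% with the brightest probe set and 13.5% with the offset. For the other comparisons that share was computed only in the fit reported. Combined against MSG gave 0 without the filter and 0 with the median of probe sets. With the replicate number as a block the counts were 5, 3, 0, 1 and 3, but the numbers did not pair the arrays. The share of all genes called for the main effect was then 5.73%. Leaving out 1 array left a diet with 1 array. It gave fewer calls for the main effect, among members and among all genes, and no more than reported in the other comparisons. Without both trans-fat/HFCS arrays, chosen after seeing the data, the main effect had 1, beside 1.3% of all genes. For the MSG main effect, the interaction and MSG against control the count was 0 in every setting run. Quantile normalization and the additive model changed no count.

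COX6B2 reversed with the brightest probe set, to 0.33 for the main effect (limma adjusted p = 0.50, range over its settings 0.0020 to 0.50) and 0.37 for combined against control (0.67, range 0.030 to 0.67). Of 177 values of called genes under an alternative, 60 were no longer called, and of 3111 uncalled values 26 became called. The cause was not tested.

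Median changes moved as follows. For the main effect of trans fat and HFCS they were -0.019 without the filter, -0.047 with the offset, -0.11 without both trans-fat/HFCS arrays and -0.086 to -0.022 leaving out 1 array. For MSG they were 0.044 with the brightest probe set, 0.051 without those arrays and 0.0080 to 0.037 leaving out 1 array. For the interaction, no filter gave -0.027, the brightest probe set -0.10, the median of probe sets -0.12, the offset -0.043, and leaving out 1 array -0.12 to -0.031. MSG against control ranged from 0.021 to 0.069 leaving out 1 array. Trans-fat/HFCS against control turned to 0.018 without the filter, 0.032 with the brightest probe set and 0.0021 with the offset, and ranged from -0.040 to 0.014 leaving out 1 array. Combined against control gave -0.013 without the filter, -0.0098 with the brightest, -0.11 with the median, -0.027 with the offset, and -0.080 to -0.018 leaving out 1 array. Combined against MSG gave -0.047, -0.14, -0.085 and -0.083 in that order, -0.15 with the 75th percentile filter and -0.13 to -0.068 leaving out 1 array. The sign of a complex median changed in 75 of 545 recomputed values.

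Groups of 2 arrays are too small to single out an array, and members with a dim signal varied more within a diet.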

Other observations

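The array annotation ties further probe sets to a member and another gene together, and these were left out of every value above. They include 11 probe sets shared by DONSON and ATP5O and 2 shared by ATP5I and MYL5, a myosin light chain gene. SDHA, a called gene, also shares probe sets with SDHALP1 or SDHALP2, at least 7 of them tied to both. Among kept probe sets of members that were not called, COX4NB held changes of opposite sign for the trans-fat/HFCS main effect, -2.25 on 1 probe set and 1.20 on another. The first averaged below the filter value of 2.43 on the arrays with trans fat and HFCS. It was thus kept only through the arrays where it was high. NDUFB9 had 1 probe set at -1.95, COX7A2 had 1 at 1.38 and UQCRC2 had 1 at 1.12, while none of these genes passed the threshold as a mean of its probe sets.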
